A study of Mus musculus with 12 samples.

Results

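Tdg and the TET genes encode enzymes of DNA demethylation, in which methylated cytosine in mouse DNA is replaced by unmodified cytosine. The members were all non-control probes of the microarray whose accession matched Tet1, Tet2, Tet3 or Tdg in RefSeq. The rule found 2 genes with 4 of the 41174 probes, 2 probes for Tdg and 2 for Tet2. No probe matched Tet1 or Tet3 by accession (16330 probes, or 39.7%, matched no gene), so those genes were not analysed here. All cells were helper T cells of C57BL/6 mice aged 7 weeks, stimulated through CD3 and CD28 for 65 hours, grown in medium with IL-2 for 48 hours more, and electroporated on days 1 and 4. RNA was taken on day 5, 24 hours after the last transfection, and hybridised to 12 Agilent one-colour arrays. Cells from DGCR8-deficient mice (Dgcr8 KO) were transfected with miR-29b, or with control miRNA. Cells from wild-type mice (WT) were given inhibitors of miR-29, or control inhibitors. There were 3 mice per genotype, numbered 2, 3 and 4, and the cells of each gave 1 treated and 1 control array, which makes 4 groups of 3 arrays. How Dgcr8 was deleted, and in which cells, is not given in the sources used here.

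TET enzymes are dioxygenases that use iron and 2-oxoglutarate to oxidise 5-methylcytosine stepwise to 5-hydroxymethylcytosine, 5-formylcytosine and 5-carboxylcytosine. TDG, thymine DNA glycosylase, cuts out the last pair of these bases, and also thymine mispaired with guanine, after which base excision repair puts in an unmodified cytosine. In mouse T cells Tet2 is known for its part in cytokine gene expression. DGCR8 is the partner of Drosha in making canonical microRNAs, so cells without it lack most of their own microRNAs, the miR-29 family among them. TET and TDG transcripts have been reported as miR-29 targets in mouse and human cells.

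The mature miR-29 sequences are shown because the transfected agents are defined by them. They come from RefSeq for mouse build GRCm38.p6, are written 5′ to 3′ as RNA, and have the seed (bases 2 to 8) in capitals. The labels name miR-29b with no arm, and the 3p arm, the one that carries the family seed, is printed.
miR-29b-3p: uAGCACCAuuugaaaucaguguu
miR-29a-3p: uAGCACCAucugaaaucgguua
miR-29c-3p: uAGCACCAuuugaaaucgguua
All 3 share the seed AGCACCA, whose match in a messenger RNA, written as DNA, is TGGTGCT. Counted from the 5′ end of miR-29b-3p, miR-29a-3p differs by U10C, A18G, G21U and U22A, and miR-29c-3p by A18G, G21U and U22A. miR-29b-3p has 23 bases and the other two have 22, so its last base has no partner in them. miR-29b-3p is made from Mir29b-1 (chr6:31063025-31063047, minus strand) and from Mir29b-2 (chr1:195037091-195037113, plus strand). The 3′ untranslated regions of Tdg and Tet2 were not searched for the seed match.

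The number of probes well above background ranged over the arrays from 27377 to 32218, and 0 spots were saturated. All 4 member probes were single spots, well above background on all 12 arrays, and none was marked as an outlier. Of the arrays, miR-29b mouse 3 stood apart with 1458 spots marked as outliers, where the remaining 11 had 68 to 193. All 10 CD4 T cell markers were well above background on every array. The Dgcr8 probe, whose place relative to the deletion is not known, had levels of -1.24 to -0.15 on the 6 Dgcr8 KO arrays and -0.16 to 1.004 on the 6 WT arrays. Its difference between the control groups was -1.06 ± 0.39 (limma, adjusted p = 0.0939). Levels throughout are log2 of the signal after subtraction of the array's 75th percentile, so a difference of -1 is a halving. Changes are differences of group means ± SE from limma, with p-values adjusted over all 32308 probes tested and a threshold of 0.05. Both arrays of a mouse came from the same animal, and the fit that compares arrays within mice is called blocked.

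Tdg fell with miR-29b in Dgcr8 KO cells. The Tdg probe A_52_P33287 stood at 26.3% of control with miR-29b, and the second Tdg probe, A_51_P338336, at 28.2%. Tet2 stood at 58.2% of control on probe A_51_P340083 and 66.6% on probe A_52_P502083. Without the block, 1 of the 4 probes passed the threshold, the Tdg probe A_52_P33287, where 0.876% of all probes passed in either direction and 0.498% were lower. In the blocked comparison all 4 passed, all lower, where 13.8% of all probes passed in either direction and 6.21% were lower. In these bulk samples, fewer cells of a type and less RNA per cell cannot be told apart.

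Tdg probe A_52_P33287, which carries the accession NM_011561, had levels of -1.01, -0.75 and -1.15 with miR-29b in mice 2, 3 and 4. With the control miRNA the same probe had 1.22, 0.95 and 0.71. Every miR-29b array was below every control array, by more than the whole range of either group. The change was -1.93 ± 0.21 (95% interval -2.40 to -1.45, limma, adjusted p = 0.00911), a 3.80-fold lower level. In the blocked fit the adjusted p was 0.00625, and 41 of the 32308 probes (0.127%) fell as far or further. Within the 3 mice the level with miR-29b was 21.3%, 30.8% and 27.6% of that mouse's control.

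Tdg probe A_51_P338336, designed to the accession NM_172552, had levels of 0.66, 1.09 and 0.05 with miR-29b, against 2.74, 2.88 and 1.66 with the control miRNA. These groups did not overlap either. The unscaled spot signal was 1253 to 1793 units on the miR-29b arrays and 5153 to 7751 units on the control arrays. Its mean change of -1.83 ± 0.42 (95% interval -2.77 to -0.88) was close to that of the other Tdg probe, but the spread between mice was wider and it missed the threshold without the block (limma, adjusted p = 0.0888). Mouse 4 was the lowest of both groups. Within mice the levels were 23.7%, 28.9% and 32.6% of control, and the blocked test, which leaves out the spread between mice, gave an SE of 0.11 and an adjusted p of 0.00585. The 2 Tdg probes followed each other over the 12 arrays (Pearson r = 0.934, a description over arrays that share mice and slides).

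**Figure D1:**
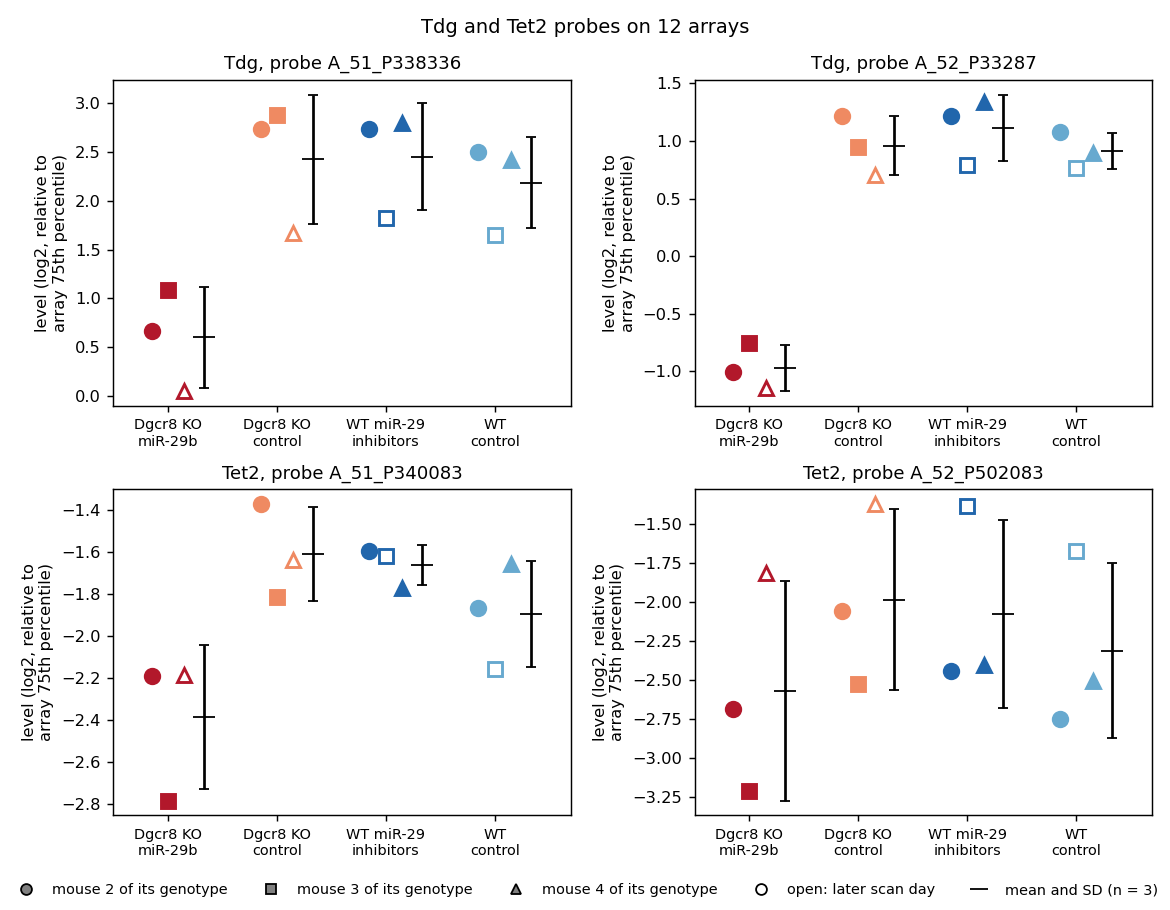
Level of each Tdg and Tet2 probe on each of the 12 arrays (y axis, log2 after subtraction of the array's 75th percentile; each panel has its own range) by group (x axis). Symbols mark the mouse, open symbols the later scan day, and black bars the mean and SD of 3 arrays. Both Tdg probes sit lower on the 3 miR-29b arrays than on any other array, whereas the miR-29b and control arrays of Tet2 probe A_52_P502083 overlap.

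Tet2, the oxidising enzyme of the pathway, missed the threshold without the block and passed it in the blocked comparison. Both Tet2 probes are listed under NM_001040400. Tet2 probe A_51_P340083 had levels of -2.19, -2.78 and -2.19 with miR-29b, against -1.37, -1.82 and -1.64 with the control miRNA. The groups did not overlap, and the change was -0.78 ± 0.22 (95% interval -1.27 to -0.29, limma, adjusted p = 0.169; blocked adjusted p = 0.0293). Within mice this Tet2 probe stood at 56.6%, 51.1% and 68.3% of control.

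Tet2 probe A_52_P502083 had levels of -2.68, -3.21 and -1.82 with miR-29b, against -2.05, -2.52 and -1.37 with the control miRNA. Here the groups overlapped, because mouse 4 was high on both of its arrays. The change of -0.59 ± 0.46 (95% interval -1.62 to 0.45) did not pass without the block (limma, adjusted p = 0.738) and passed with it (adjusted p = 0.0195). Each mouse showed a lower value with miR-29b, at 64.7%, 62.2% and 73.4% of its own control. The 2 Tet2 probes followed each other less closely than the Tdg pair did (Pearson r = 0.451 over 12 arrays). A test of the fall in Tet2 against the fall in Tdg was not made.

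**Figure D2:**
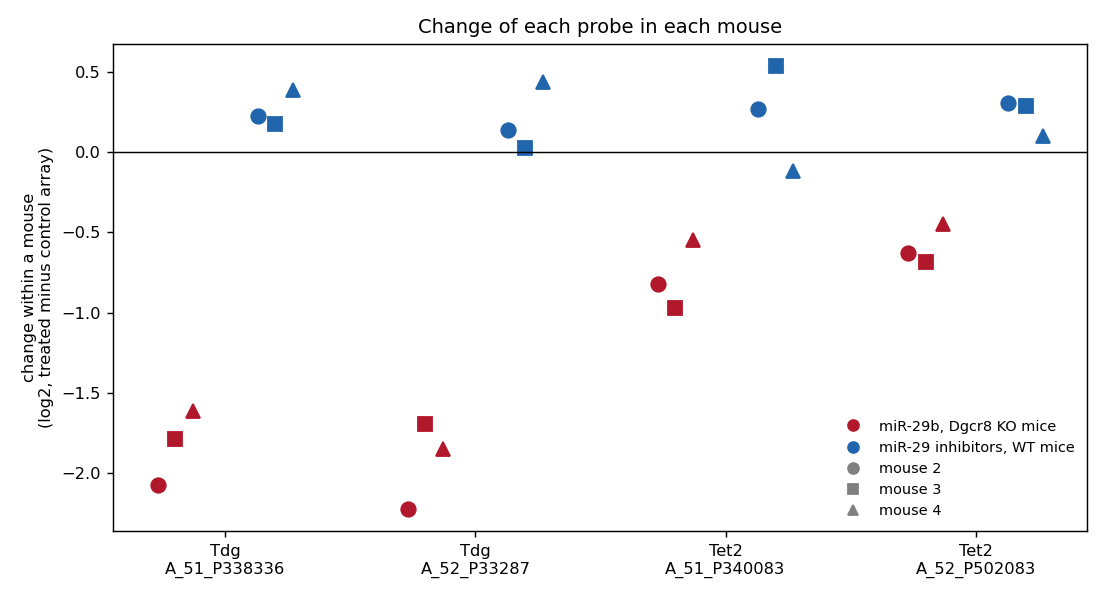
Change of each probe within each mouse (y axis, log2 of treated minus control array), for miR-29b in Dgcr8 KO mice (red) and miR-29 inhibitors in WT mice (blue). All 12 miR-29b values lie below 0, from -2.23 to -0.45. Of the 12 inhibitor values, 11 lie above 0 and the range is -0.12 to 0.54.

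The miR-29b and control groups did not overlap, with miR-29b lower, for 3 of 4 member probes, against 5.29% of all probes. All 4 probes were lower in 3 of 3 mice, against 20.1% of all probes. The median change of the 4 was -1.30, and the median of all 32308 probes was 0.11. With quantile normalization the median of all probes was -0.03, and the 4 probes then changed by -1.97, -1.84, -0.94 and -0.78, listed as A_52_P33287, A_51_P338336, A_51_P340083 and A_52_P502083. Higher probes made up 43.1% of the calls without a block, against 31.9% with quantile normalization and 29.8% with normexp background correction. In the blocked fit they made up 54.9%, against 43.0% with quantile normalization and 54.6% with normexp.

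**Figure D3:**
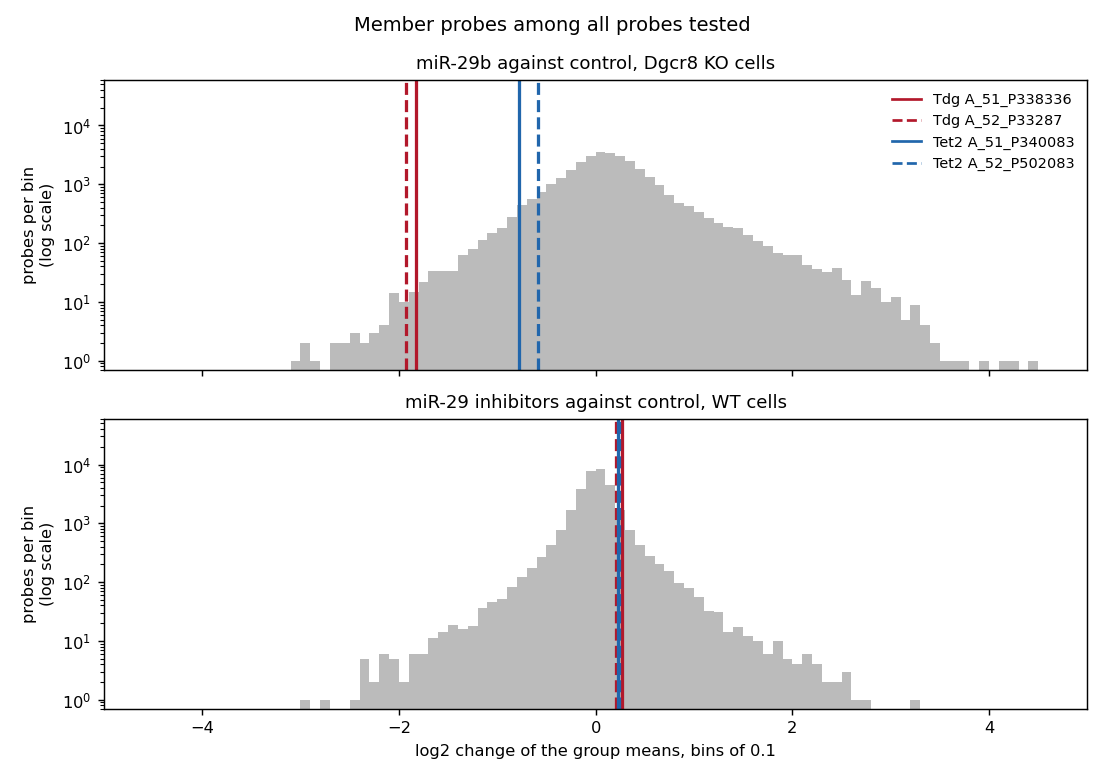
Distribution of the log2 change over all 32308 probes tested (x axis, bins of 0.1; y axis, probes per bin on a log scale) for miR-29b in Dgcr8 KO cells (top) and the inhibitors in WT cells (bottom). Vertical lines mark the Tdg probes (red) and the Tet2 probes (blue). The Tdg lines lie in the thin lower tail at -1.93 and -1.83 with miR-29b, and all 4 lines lie between 0.20 and 0.27 with the inhibitors.

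The call of the Tdg probe A_52_P33287 without the block did not hold in every setting with arrays or mice left out. It was lost without the control array of Dgcr8 KO mouse 2 (limma, adjusted p = 0.0560), without Dgcr8 KO mouse 2, 3 or 4 or WT mouse 2 or 4 (adjusted p of 0.0537 to 0.124), and on the 6 Dgcr8 KO arrays alone (0.377). Few probes of the array passed in these settings. Of all 32308 probes, 13 passed without that control array, 15 without Dgcr8 KO mouse 3 and 1 without WT mouse 4. The count was 0 without Dgcr8 KO mouse 2 or 4, without WT mouse 2, and on the 6 Dgcr8 KO arrays alone. Leaving out WT mouse 2 or 4 left the change at -1.93. The change of A_52_P33287 stayed between -2.05 and -1.78 when any array or mouse was left out. In the blocked fit both Tdg probes passed without any single mouse except Dgcr8 KO mouse 4 (adjusted p = 0.0562, with 0 of all probes called). The blocked calls of both Tet2 probes were lost without Dgcr8 KO mouse 2, 3 or 4, and that of A_51_P340083 also without WT mouse 2. Blocked calls over all probes numbered 4452 with every mouse. They were 67 without Dgcr8 KO mouse 2, 1801 without Dgcr8 KO mouse 3, 0 without Dgcr8 KO mouse 4 and 2117 without WT mouse 2.

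The scan day moved with the levels of 3 of the 4 probes. Dgcr8 KO mouse 4 and WT mouse 3 were scanned on the later of 2 days, both on 1 slide. Tdg probe A_51_P338336 was 0.81 to 1.14 lower on that day in each of the 4 groups, and the Tdg probe A_52_P33287 was 0.22 to 0.49 lower. Tet2 probe A_52_P502083 went the other way and was 0.92 to 1.13 higher. For those arrays the mouse, the slide and the scan day cannot be told apart. Treated and control arrays of each mouse shared a slide and a day. Without the arrays of the later day, a setting added after the data were seen, the Tdg probe A_52_P33287 changed by -1.96 (adjusted p = 0.0964), and 0 probes passed.

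The summed level of the CD4 T cell markers was 9.40 to 9.58 on the miR-29b arrays and 8.98 to 9.06 on the control arrays of Dgcr8 KO cells. None of the 10 passed without the block and 4 were higher with it, where 13.8% of all probes passed. The 4 were Lck (0.58), Cd247 (0.57), Thy1 (0.54) and Cd3d (0.48). Cd5 (0.47), Cd6 (0.46), Cd3g (0.24) and Cd28 (0.23) were above 0, and none of them passed in either fit. Cd4 itself was at 0.05 and Cd3e at -0.01, neither past the threshold in either fit. The median of the CD4 T cell list was 0.47, against 0.11 for all probes. Markers of B cells, by their summed level, were at 3.20 to 3.68 with miR-29b and 3.01 to 3.52 with the control miRNA, with 0 of 7 past the threshold in either fit. None of the 5 NK cell markers, nor the 1 CD8 marker measured, Cd8a, passed in either fit. Of 6 myeloid markers 0 passed without the block and 1 was higher with it, where 7.57% of all probes were higher. This was Adgre1 (1.06, limma, blocked adjusted p = 0.0341), with mean levels of -4.99 with miR-29b and -6.05 with the control miRNA. Itgam (-1.38) and Fcgr3 (-0.51) were below 0, and Cybb (0.27), Csf1r (0.19) and Cd14 (0.07) above it, none past the threshold in either fit. The summed level of the myeloid list was -2.50 to -0.83 with miR-29b and -1.96 to -1.10 with the control miRNA, and that of the NK list was -2.48 to -0.37 with miR-29b and -1.89 to -0.58 with the control miRNA. Cd8a was at -2.75 to -1.33 with miR-29b and at -2.89 to -1.57 with the control miRNA. Their part in the fall of Tdg and Tet2 was not tested.

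The inhibitors gave small values of the opposite sign for Tdg and Tet2 in WT cells, none past the threshold. Tdg probe A_51_P338336 had levels of 2.73, 1.82 and 2.80 with miR-29 inhibitors, against 2.50, 1.64 and 2.41 with control inhibitors. Tdg probe A_52_P33287 had 1.22, 0.79 and 1.34 with the inhibitors, against 1.08, 0.76 and 0.90 with the controls. The groups overlapped on both probes. The differences were 0.27 ± 0.42 (95% interval -0.68 to 1.21) and 0.20 ± 0.21 (95% interval -0.27 to 0.68), or 120% and 115% of control.

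Tet2 probe A_51_P340083 had levels of -1.59, -1.62 and -1.77 with the inhibitors, against -1.87, -2.16 and -1.66 with control inhibitors. Tet2 probe A_52_P502083 had -2.44, -1.38 and -2.40 with the inhibitors, against -2.75, -1.67 and -2.51 with the controls. These Tet2 groups overlapped too, so 0 of the 4 probes had groups apart, against 1.56% of all probes higher with the inhibitors and 1.01% lower. The differences were 0.23 ± 0.22 (95% interval -0.26 to 0.73) and 0.23 ± 0.46 (95% interval -0.80 to 1.27). Within mice, 3 of 4 member probes were higher in 3 of 3 mice, against 13.2% of all probes, the exception being A_51_P340083 in mouse 4 at -0.12. No probe of the array passed in this comparison (0% called; limma, 113 at an unadjusted p under 0.05, and 965 with the block, again with 0 past the threshold). The smallest unadjusted blocked p of the 4 was that of A_52_P502083 (0.0482), which did not pass after adjustment. The upper ends of the blocked intervals were 0.55 for A_51_P338336, 0.54 for A_52_P33287, 0.61 for A_51_P340083 and 0.47 for A_52_P502083.

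The response of Tdg to miR-29b in Dgcr8 KO cells differed from its response to the inhibitors in WT cells in the blocked fit. The difference of the effects was -2.13 ± 0.30 for A_52_P33287 (limma, adjusted p = 0.0777; blocked 0.0263) and -2.09 ± 0.60 for A_51_P338336 (adjusted p = 0.445; blocked 0.0223). For Tet2 it was -1.01 ± 0.31 on A_51_P340083 (blocked adjusted p = 0.0823) and -0.82 ± 0.66 on A_52_P502083 (blocked adjusted p = 0.0514). So 0 of 4 probes passed without the block, where 0.0155% of all probes did, and 2 passed with it, both lower, where 1.73% did (1.13% lower). Leaving out 1 mouse at a time, both Tdg probes passed in the blocked fit without Dgcr8 KO mouse 3 (adjusted p = 0.0461) and missed the threshold without any of the other 5 mice (0.104 to 0.151). Of all 32308 probes, 185 passed without Dgcr8 KO mouse 3, and 0 passed without any of the other 5 mice. These effects differ in genotype, in agent and in control oligonucleotide, which cannot be told apart.

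Between the control groups neither Tdg nor Tet2 passed the threshold. Dgcr8 KO minus WT control was 0.24 ± 0.42 (95% interval -0.70 to 1.18, limma, adjusted p = 0.819) for the Tdg probe A_51_P338336 and 0.04 ± 0.21 (95% interval -0.43 to 0.52, adjusted p = 0.948) for A_52_P33287. For Tet2 it was 0.29 ± 0.22 (95% interval -0.21 to 0.78, adjusted p = 0.493) on A_51_P340083 and 0.33 ± 0.46 (95% interval -0.71 to 1.36, adjusted p = 0.759) on A_52_P502083. Of all probes 16.5% passed in this comparison, and 0 of the 4 members. All 4 members had overlapping groups, while 14.7% of all probes were higher in Dgcr8 KO with no overlap and 17.9% lower.

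Within the pair of slides that held both genotypes, the Tet2 difference was 0.50 and 0.52 on A_51_P340083 and 0.70 and 0.30 on A_52_P502083. The Tdg difference was 0.23 and 0.02 on A_51_P338336 and 0.14 and -0.06 on A_52_P33287. With slide as a block, the Tet2 probe A_52_P502083 passed (0.49, adjusted p = 0.0227) and the other 3 did not, where 36.5% of all probes passed. That fit has no term for the mouse, so its p-value does not measure the spread between mice. Its genotype difference comes from those slides, which held Dgcr8 KO mice 2 and 4 and WT mice 2 and 3. With the mouse as a random block, this Tet2 probe did not pass (limma, adjusted p = 0.698), where 4795 of 32308 probes passed. The control miRNA and the control inhibitors are different agents, so genotype and control agent cannot be told apart.

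Most B cell markers differed between the control groups, where 16.5% of all probes passed. Of 7 B cell markers 6 were higher in Dgcr8 KO controls, among them Blnk (6.24 ± 0.55), an adaptor of the B cell receptor, Ms4a1 (5.86 ± 0.57), which encodes CD20, and Cd79b (3.83 ± 0.34), a chain of the B cell receptor complex. All 3 of these were well above background on every array. The B cell marker that did not pass was Pax5, at 0.001. The summed level of the B cell list was 3.01 to 3.52 in Dgcr8 KO controls and -1.32 to -0.81 in WT controls. Of 5 NK cell markers 1 passed, Klrd1, which was lower (-2.55 ± 0.54). The other NK values were positive, Ncr1 at 1.04, Klrb1c at 0.80, Klra8 at 1.99 and Klrc1 at 1.24, none past the threshold, and the list median was 1.04. Of 6 measured myeloid markers 1 passed, Adgre1, which was lower (-2.72 ± 0.52). Fcgr3 was at -2.22 and Csf1r at -0.15, and Itgam (0.46), Cd14 (0.20) and Cybb (0.02) were not below 0, none past the threshold. The summed level of the NK list, to which Klrd1 adds most, was -1.89 to -0.58 in Dgcr8 KO controls and 0.32 to 1.52 in WT controls, and that of the myeloid list, to which Fcgr3 adds most, was -1.96 to -1.10 in Dgcr8 KO controls and -0.49 to 0.39 in WT controls. The 10 CD4 T cell markers had 0 past the threshold. The part of these cell type markers in the genotype values of Tdg and Tet2 was not tested.

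Genes that act downstream and upstream of TDG and TET were counted by list for miR-29b, beside the share of all probes. Each list gene was counted by its brightest probe. A fit of the brightest probe of each gene, without the block, called 322 of 14745, and no such fit was run with the block. Of 23 base excision repair genes, the glycosylases, nucleases, polymerases and ligases that act beside or after TDG, 0 passed without the block. With it, 5 fell and 0 rose, where 6.21% of all probes were lower and 7.57% higher, and the list median was -0.18. Named after their values were seen, the 5 were the uracil glycosylases Ung (-1.70 ± 0.76, limma, adjusted p = 0.438 without the block and 0.00862 with it) and Smug1 (-0.67), the repair enzyme Tdp1 (-0.61), the replication clamp Pcna (-0.52) and the endonuclease Apex2 (-0.34). Of 19 genes that make or use the TET cofactors 2-oxoglutarate and ascorbate, or the inhibitors succinate and fumarate, 1 passed without the block (0.876% of all probes) and 2 with it (13.8% of all probes), all lower, with a median of -0.11. That 1 gene was Fh1, the fumarase that turns fumarate to malate. Fh1 had levels of 1.84, 1.88 and 1.74 with miR-29b, against 3.48, 3.38 and 3.604 with the control miRNA. The Fh1 groups lay far apart, with a change of -1.67 ± 0.16 (limma, adjusted p = 0.00608). Fh1 with the inhibitors was at 4.03, 4.07 and 4.03, against 3.87, 4.20 and 3.92 with control inhibitors, a difference of 0.04 ± 0.16. The gene that joined Fh1 with the block was Glud1 (-0.38), the glutamate dehydrogenase that makes 2-oxoglutarate.

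Of 27 measured partners and regulators of TET and TDG (28 listed), 0 passed without the block. With it, 3 rose and 0 fell, where 13.8% of all probes passed and 7.57% were higher, and the median was 0.19, against 0.11 for all probes. Also named after their values were seen, these were Cxxc5 (0.97), Gadd45b (0.95), of a stress response family linked to demethylation, and Apobec1 (0.51), a cytidine deaminase. None of the 3 lists had a gene past the threshold with the inhibitors, with medians of -0.0036 for base excision repair, 0.01 for the cofactor genes and 0.02 for the partners.

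**Figure D4:**
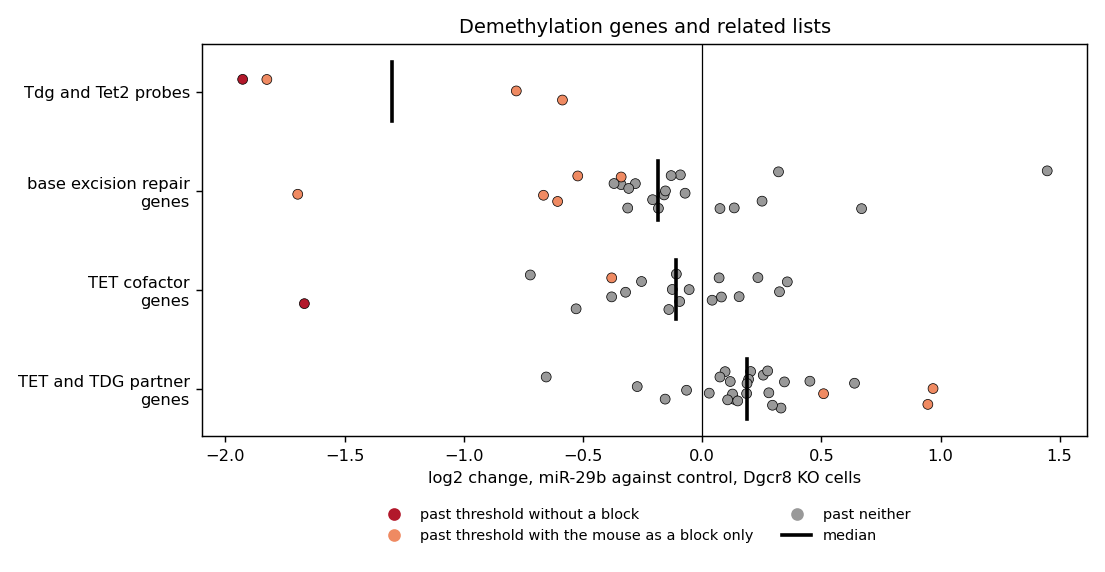
Change with miR-29b in Dgcr8 KO cells (x axis, log2) of the 4 Tdg and Tet2 probes and of the genes of 3 related lists, each gene by its brightest probe. Colour marks calls without the block (dark red), with the block alone (orange) or in neither (grey), and the black bar is the median. The 4 member probes have a median of -1.30, and the list medians lie between -0.18 and 0.19.

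The same lists were counted between genotypes, where 16.5% of all probes passed. Of those calls over all probes, 47.5% were higher in Dgcr8 KO controls. List genes were counted by their brightest probe, and a fit of the brightest probe of each gene called 3157 of 14745. Of the 23 base excision repair genes 1 was higher and 5 were lower in Dgcr8 KO controls (median -0.45). The glycosylases Mpg (-1.36 ± 0.17), which removes alkylated bases, Ogg1 (-0.996 ± 0.19), which removes oxidised guanine, and Mbd4 (-0.95 ± 0.23), which like TDG acts on thymine and uracil opposite guanine, were lower. Smug1, a uracil glycosylase, was the higher one (1.57 ± 0.21), at 0.83, 0.67 and 0.27 in Dgcr8 KO controls, against -0.94, -1.20 and -0.79 in WT controls. Mbd4 was at -0.93, -0.85 and -0.50 in Dgcr8 KO controls, against -0.05, 0.28 and 0.34 in WT controls. The groups did not overlap for either gene.

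Among the 19 cofactor genes 1 was higher, the mitochondrial isocitrate dehydrogenase Idh2 (1.29 ± 0.24), which makes 2-oxoglutarate, and 1 was lower, the transaminase Got1 (-1.32 ± 0.21), which uses it. Among the 27 partners 2 were higher and 4 lower. They included Cxxc5 (1.54 ± 0.19), a CXXC zinc finger protein, Apobec3 (1.26 ± 0.21), a cytidine deaminase, Apobec2 (-1.37 ± 0.30), a member of the deaminase family, and Rbx1 (-0.81 ± 0.18), a subunit of cullin ubiquitin ligases. Cxxc5 was at -3.02, -2.91 and -2.64 in Dgcr8 KO controls, against -4.46, -4.45 and -4.27 in WT controls. These counts stand beside 16.5% of all probes past the threshold, and 3157 of 14745 in the fit of the brightest probe of each gene.

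The genes whose levels followed Tdg most closely over the 12 arrays, among 12430 genes above background on all of them, were Cop1 (Pearson r = 0.991 with probe A_51_P338336), a ubiquitin ligase, Tpm1 (0.9904), a tropomyosin, and Gtf2e2 (0.985), a subunit of the general transcription factor TFIIE. Their changes with miR-29b were -0.96, -1.27 and -1.60, in that order. For Tet2 probe A_51_P340083 they were Itgb1 (0.943), the integrin beta 1 chain, Kctd9 (0.876) and Dcaf5 (0.872), with changes of -1.03, -0.87 and -0.53. These correlations are descriptions over arrays that share mice, slides and scan days. The 12 arrays include those with miR-29b, so the choice itself favours genes that fall with miR-29b as Tdg and Tet2 do. The changes of these genes are therefore not separate evidence.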

How the data were processed

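Spot intensity was read from the deposited scanner files, written by Agilent Feature Extraction 10.5.1.1, per the file headers, with background subtracted within each array and no scaling between arrays. A second deposited table gives the authors' log2 values; the submitters' processing notes name limma for it, its further steps and centring are not given in the sources used here, its column medians were 6.95 to 6.96, and it served as an alternative. Controls (1639 of 45018 spots) were left out, the processed signal was taken as log2 minus the 75th percentile of the array, and spots of 1 probe were averaged. Probes well above background on at least 3 of 12 arrays were kept (32308). Accessions matched a RefSeq symbol for 24844 of 41174 probes. Probe sequences were not in the files used here, and whether the Tdg probes match the Tdg pseudogenes in RefSeq was not tested.

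Groups followed the titles. limma 3.58.1 in R 4.3.3 fitted all 12 arrays as 4 groups without a block, with Benjamini-Hochberg adjustment over all kept probes; the script was tested on simulated data. The blocked fit has a term per mouse, since the study design states that both arrays of a mouse share the animal. Residuals of such arrays correlated at 0.54, 0.50 and 0.76 (Dgcr8 KO) and 0.44, 0.76 and 0.45 (WT). For the genotype comparison the mouse was a random block (correlation 0.758). On each array 27377 to 32218 probes were above background; 3 arrays per group limit the precision.

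Alternatives were normexp (offset 50; on the median signal, as the files hold no mean signal), quantile normalization, the authors' values, the dim-probe filter, outlier spots, blocks, the arrays fitted, and the brightest probe of each gene. The members, the gene lists and the naming rule were chosen with earlier results of these data known. That rule took all member probes, up to 4 genes of each other list with the smallest p past the threshold for miR-29b or genotype, and the 3 genes most correlated with the brightest probe of each member gene. A gene that this rule takes from the B cell list is not reported here.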

Additional observations from a re-analysis of the deposited data

How the results depend on the processing

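The falls of Tdg and Tet2 with miR-29b kept their sign in every alternative run, and what changed were the calls. For miR-29b, 4 member probes passed with the mouse as a replicate block (-1.83, -1.93, -0.78 and -0.59, given here and below as Tdg A_51_P338336, Tdg A_52_P33287, Tet2 A_51_P340083 and Tet2 A_52_P502083). The same 4 passed with slide as a block (same changes). Scan day as a block called 2 (both Tdg probes, -1.83 and -1.93), as did the authors' deposited values (A_51_P338336 at -1.82). On the 6 arrays of the comparison alone 0 passed (A_52_P33287 at -1.93), and without the later scan day also 0 (-1.96). With outlier spots left out and the brightest probe of each gene, A_51_P338336 passed at -1.86. Together with the replicate block, 4 passed with normexp (-1.82, -1.71, -0.57 and -0.44), with the authors' deposited values (-1.82, -1.80, -0.75 and -0.62) and with quantile normalization (-1.84, -1.97, -0.94 and -0.78).

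For the difference of effects, member probes past the threshold were 2 with mouse, slide or scan day as a block (Tdg, -2.09 and -2.13), 2 with the block and normexp (-2.12 and -1.89) or quantile normalization (-2.09 and -2.16), and 4 with the block and the authors' deposited values (-2.07, -1.96, -0.96 and -0.83). Without a block, 1 (Tdg A_52_P33287) passed with quantile normalization (-2.16), the authors' values (-1.96) and probes above background on all arrays (-2.13). For genotype, 1 passed with slide as a block (Tet2 A_52_P502083, 0.49). The replicate block changed no call of a member probe for the inhibitors or for genotype. Over all probes, the genotype calls went from 5343 to 4795 with it.

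Probes tested numbered 32308, or 41174 with no filter on dim probes, 25573 above background on all arrays and 31014 with outliers left out. They numbered 14745 with the brightest probe of each gene and 14175 with outliers left out too. Counts from settings that tested different numbers do not compare as shares. Probes past the threshold for miR-29b numbered 283. They were 188 with normexp, 645 with the authors' values, 170 with no filter on dim probes, 437 with probes above background on all arrays, 4452 with the replicate block, 3545 with slide, 2529 with scan day, 0 on the comparison's arrays (limma, 2136 at an unadjusted p under 0.05) and 0 without the later day. Combined with the block they were 4112 (normexp), 6163 (authors' values) and 4141 (quantile). For genotype (5343) they were 11777 with slide, 10875 with scan day, 3157 with the brightest probe of each gene and 3240 with outliers left out too. For the difference of effects (5) they were 8 with normexp, 21 with quantile, 58 with the authors' values, 3 with no filter, 31 with probes above background on all arrays, 11 with outliers left out, 24 with the brightest probe and 30 with both. They were 558 with the block, 469 with slide, 359 with scan day, 0 without the later day, and 1164 (normexp), 2087 (authors' values) and 584 (quantile) with the block.

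Leaving out 1 array or 1 mouse, with or without the replicate block, gave these ranges. For miR-29b they were -2.21 to -1.55, -2.05 to -1.78, -0.89 to -0.58 and -0.96 to -0.27, with 0 to 4 member probes and 0 to 3046 of all probes past the threshold. The count of all probes was 0 without Dgcr8 KO mouse 2 or 4 or WT mouse 2 (no block), 0 without Dgcr8 KO mouse 4 (block), and highest without WT mouse 4 (block). For the difference of effects the Tdg ranges were -2.47 to -1.82 and -2.29 to -1.98, with 0 to 2 member probes and 0 to 185 of all probes. Without a block, the Tdg inhibitor value (A_51_P338336) ranged over -0.0059 to 0.58 and the Tet2 value (A_52_P502083) over -0.11 to 0.55, with the sign turned without WT control mouse 3 for Tdg and without the inhibitor array of mouse 3 for Tet2. The genotype values of Tdg ranged over -0.032 to 0.62 and -0.087 to 0.17, with the sign turned without WT control mouse 3 (-0.032 and -0.030) and, for A_52_P33287, without Dgcr8 KO control mouse 2. The genotype count ranged from 2674 (without WT mouse 4) to 5702. The cause of these changes was not tested. Member spots were well above background on all arrays, and the number of arrays limits the precision.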
